A study of Mus musculus with 5 samples.

Results

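In IL-2-activated natural killer cells (NKC), 1006 of the 11676 Runx3 peaks (8.62%) were distal peaks lying in narrow valleys between H3K4me1 intervals. These valley peaks were chosen by position alone. The centre of a valley peak lay 1 to 50 kb from the nearest transcription start site (TSS), outside every H3K4me1 interval, with such an interval within 1 kb on both sides. The peak lists came from ChIP-seq of splenic NKC of ICR mice. The cells were enriched by negative selection, sorted for DX5 and grown with IL-2 at 1000 units/ml over 7 days. All libraries came from such activated cells, with no resting or Runx3-deficient cells among them, and comprised 2 immunoprecipitations of Runx3, 1 of H3K4me1 and 2 controls with non-immune serum (NIS). The peak lists hold start and end positions in mm9 and no peak heights or values per library. Sequencing depth cannot be read from them, although the paper reports read counts, no value below has a replicate error, and intervals cover counting error only. The lists hold no expression values, so the identity of the cells could not be checked against marker genes. The paper itself reports nearly all cells as NKp46-positive at the end of culture.

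Runx3 is a DNA-binding transcription factor of the Runt family that shapes the effector programmes of NKC and cytotoxic T cells. H3K4me1, monomethylation of lysine 4 of histone H3, marks nucleosomes at enhancers. A factor bound at an active enhancer commonly sits in nucleosome-poor DNA with marked nucleosomes on either side, so that the mark dips at the binding site.

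Examples of the valley sequences are given first, since the DNA under the Runx3 peak was not used in choosing the valley peaks. For each of 7 gene lists, among the genes named below, the valley peak with most RUNX motifs in its central 200 bp is shown. Ties went to the peak closest to the gap midpoint. The valley peak in the narrowest gap, near Gdf15, is shown as well. Each line gives the central 200 bp on the plus strand of mm9, 5′ to 3′, under the name of the nearest protein-coding gene, with RUNX motifs in capitals (the word TGTGGT or TGTGGC or TGCGGT or TGCGGC, on either strand).
Gzmb, chr14:56906796-56906995: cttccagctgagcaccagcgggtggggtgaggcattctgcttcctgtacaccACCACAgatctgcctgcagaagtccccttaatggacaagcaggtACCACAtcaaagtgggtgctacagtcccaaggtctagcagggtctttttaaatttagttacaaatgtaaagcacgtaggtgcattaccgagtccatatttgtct
Cd244, chr1:173491416-173491615: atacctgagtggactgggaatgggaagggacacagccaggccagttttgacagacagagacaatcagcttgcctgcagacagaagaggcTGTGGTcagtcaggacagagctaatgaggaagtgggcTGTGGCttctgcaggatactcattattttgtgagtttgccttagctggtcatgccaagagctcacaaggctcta
Ccl5, chr11:83363790-83363989: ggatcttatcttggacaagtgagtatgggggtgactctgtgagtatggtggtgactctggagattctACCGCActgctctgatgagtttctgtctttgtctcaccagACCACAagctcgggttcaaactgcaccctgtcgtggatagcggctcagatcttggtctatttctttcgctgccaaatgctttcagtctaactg
Tgfbr2, chr9:116070001-116070200: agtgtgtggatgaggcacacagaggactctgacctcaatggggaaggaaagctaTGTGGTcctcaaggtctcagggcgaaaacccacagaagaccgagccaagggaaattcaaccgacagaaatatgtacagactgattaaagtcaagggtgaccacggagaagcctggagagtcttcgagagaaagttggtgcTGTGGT
Myc, chr15:62009446-62009645: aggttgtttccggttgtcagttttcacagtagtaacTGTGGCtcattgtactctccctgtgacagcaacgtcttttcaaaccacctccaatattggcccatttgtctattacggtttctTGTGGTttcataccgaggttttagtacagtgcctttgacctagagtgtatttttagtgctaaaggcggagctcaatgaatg
Itgb2, chr10:77003351-77003550: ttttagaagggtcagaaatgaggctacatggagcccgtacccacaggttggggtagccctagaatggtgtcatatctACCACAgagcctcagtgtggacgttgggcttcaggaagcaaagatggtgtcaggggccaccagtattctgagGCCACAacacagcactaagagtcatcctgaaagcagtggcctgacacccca
Tnfrsf9, chr4:150291517-150291716: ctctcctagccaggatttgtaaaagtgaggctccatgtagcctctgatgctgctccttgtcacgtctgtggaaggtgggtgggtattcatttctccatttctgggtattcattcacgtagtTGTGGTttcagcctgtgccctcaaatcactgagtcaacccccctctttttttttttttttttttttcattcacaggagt
Gdf15, chr8:73159191-73159390: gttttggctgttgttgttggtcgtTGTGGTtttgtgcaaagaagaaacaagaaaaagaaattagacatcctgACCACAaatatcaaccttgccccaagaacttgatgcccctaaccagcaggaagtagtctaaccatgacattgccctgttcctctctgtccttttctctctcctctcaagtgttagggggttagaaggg
Of these 8 sequences, 7 carried 2 RUNX motifs and the one at Tnfrsf9 carried 1. They are not typical, since over all valley peaks 36.5% held 2 or more in the central 200 bp and 241 of 1006 held 0. The Tnfrsf9 sequence also held an AP-1 motif at bases 151 to 157, and all but those at Ccl5 and Tnfrsf9 held 1 ETS motif. At Gdf15, which encodes a secreted stress cytokine, the flanking H3K4me1 intervals were 12 bp apart.

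The valleys were narrower at the median than the Runx3 peaks lying over them. The gap between the flanking H3K4me1 intervals was 543 bp wide at the median, 286 and 834 bp at the quartiles, and ranged from 12 to 1821 bp, whereas the Runx3 peaks had a median width of 739 bp. The gap was at most 200 bp in 163 valley peaks, over 200 and up to 1000 bp in 695 and over 1000 bp in 148. The Runx3 peak spanned the entire gap and ran into H3K4me1 on both sides in 490 of them (48.7%), ran into it on 1 side in 386 (38.4%) and lay wholly inside the gap in 130 (12.9%). Flanking H3K4me1 intervals had a median width of 794 bp, against 689 bp for all H3K4me1 intervals. Since the rule used these intervals, the widths are descriptions with no test. A gap is a break between called intervals of 1 H3K4me1 library, and the lists hold no signal inside it. The narrowest gaps were shorter than the DNA fragments that the paper reports. Whether a gap is a dip in the mark or a break in peak calling was not tested.

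**Figure D1:**
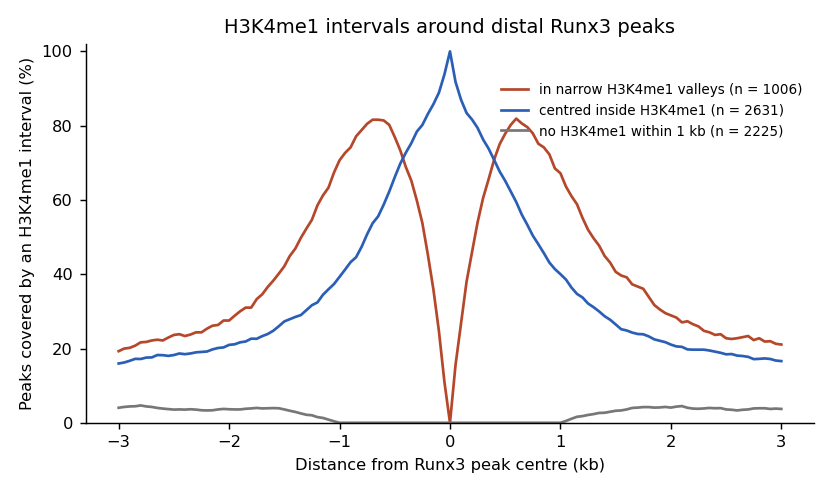
Share of distal Runx3 peaks (y axis, percent) that an H3K4me1 interval covers at each distance from the Runx3 peak centre (x axis, kb), for the 1006 valley peaks, the 2631 peaks centred inside H3K4me1 and the 2225 with none within 1 kb. The dip to 0 at the centre of the valley peaks is fixed by the rule, as is the presence of H3K4me1 within 1 kb on both sides. Coverage rose on both sides to about 82%, with 81.6% at -650 bp and 81.9% at 600 bp, before falling to 19.3% at -3000 bp and 21.1% at 3000 bp.

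As the profile shows, H3K4me1 around valley peaks was a pair of shoulders, which the rule requires within 1 kb, each of limited extent. The median offset of Runx3 peak centres from the gap midpoint was 91.3 bp, and 617 (61.3%) lay in the middle part that makes up 50% of the gap, a modest lean on positions that the rule used. Just inside the limit of 1 kb, 34 peaks had their more distant flank at 900 to 1000 bp, with a median gap of 1169.5 bp, and the 34 peaks just outside it, at 1000 to 1100 bp, had one of 1228 bp. At the other limit, 37 of 346 Runx3 peaks (10.7%) at 1000 to 1500 bp from a TSS lay between H3K4me1 intervals in this way, and 36 of 432 (8.33%) at 500 to 1000 bp.

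Most gaps of this kind held no Runx3 peak. Of the 11027 gaps of up to 2 kb whose midpoint lay 1 to 50 kb from a TSS, 1005 (9.11%) held a valley peak, 1 of them holding 2. Another 1192 were overlapped by a Runx3 peak that was no valley peak of that gap, and 8830 were overlapped by none. The share of gaps with a valley peak was 3.66% at widths of up to 200 bp, 12.3% from there to 500 bp, 17.9% from 500 to 1000 bp, 11.6% from 1000 to 1500 bp and 2.02% from 1500 to 2000 bp. A wider gap has more room for a centre, and per Mb of gap the number of gaps with a valley peak fell throughout, at 463, 369, 248, 94.0 and 11.6 in the same order. In the widest gaps the rule itself leaves little room for a centre within 1 kb of both edges. Repeated sequence, in which uniquely aligned reads cannot be placed, was limited in the gaps. Of the 40-mers in the gaps with a valley peak 96.8% occurred once in the genome, against 98.6% in the flanking H3K4me1 intervals and 94.3% in gaps without Runx3, and in 836 gaps (83.2%) at least 95% of 40-mers did so.

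**Figure D2:**
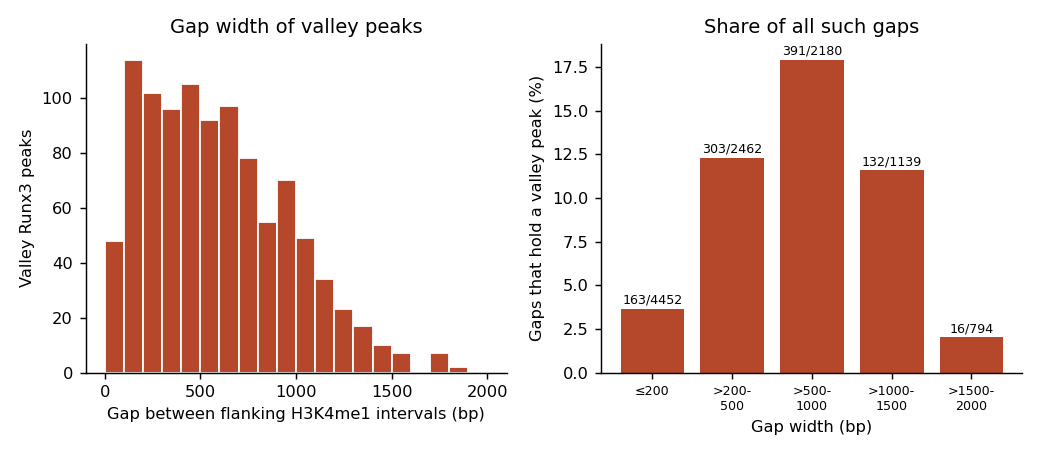
Left, number of valley Runx3 peaks (y axis) by the width of the gap between the flanking H3K4me1 intervals (x axis, bp, bins of 100 bp). Right, share of all distal gaps of a given width that held a valley peak (y axis, percent), with counts above the bars, which ran from 3.66% at up to 200 bp to 17.9% at 500 to 1000 bp, while per Mb of gap the number ran the other way, from 463 to 248.

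The plot of gap widths shows the spread over this range without a separate narrow or wide group. Valley peaks lay a median of 11053.5 bp from the nearest TSS, with 247 at 1 to 5 kb and 759 over 5 kb. Their centres were intronic in 612 cases (60.8%), intergenic in 359 (35.7%), in a UTR in 21 and in another exonic part in 14. Intronic centres made up 56.7% of the distal peaks centred inside H3K4me1 and 50.1% of those with none within 1 kb, a comparison given without a test. Another Runx3 peak lay within 5 kb of 343 valley peaks. Valley peaks made up 5.16% to 10.2% of the Runx3 peaks of each autosome. Chromosome X held 0, with only 60 Runx3 peaks and 51 H3K4me1 intervals on it.

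The sequence under the valley peaks differed from that of distal peaks centred inside H3K4me1 and of distal peaks with none within 1 kb. More valley peaks held ETS and STAT motifs than peaks of either class, and fewer held RUNX motifs than peaks without H3K4me1. A further 1459 distal peaks had H3K4me1 within 1 kb on 1 side only. Their motifs were not compared, so no difference is shown to be particular to valley peaks among all distal peaks. Motif shares in the central 200 bp were compared with 2631 distal Runx3 peaks centred inside H3K4me1 and with 2225 distal peaks that had no H3K4me1 within 1 kb, in two-sided Fisher's exact tests whose p-values were adjusted over the 10 tests by the Benjamini-Hochberg method. Peaks of one list are not independent replicates of a condition, so these p-values describe the lists. Background shares given beside the counts are those over all 11676 Runx3 peaks.

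A RUNX motif, the site bound by Runx proteins, was present in the central 200 bp of 765 valley peaks (76.0%, 95% Wilson interval 73.3 to 78.6, background 77.0%). The share was 79.2% in peaks centred inside H3K4me1, a difference of -3.13 percentage points (95% interval -6.25 to -0.133) that did not pass adjustment (adjusted exact p = 0.0614). In peaks without H3K4me1 it was 82.7%, and here the difference of -6.65 points (-9.78 to -3.64) passed (adjusted exact p = 4.87e-05). In the whole Runx3 peak, 963 of 1006 valley peaks (95.7%) held a RUNX motif, against 96.0% of all Runx3 peaks, so that the lower central share was not seen over the longer sequence (odds ratio 0.900 against peaks without H3K4me1, adjusted exact p = 0.638). The whole peaks were of unequal length, with a median of 739 bp in valley peaks and 633 bp in peaks without H3K4me1. When H3K4me1 was required within 500 bp on both sides, the odds ratio was 0.792 (adjusted exact p = 0.0702).

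ETS motifs (AGGAAA or AGGAAG or CGGAAA or CGGAAG), bound by a family that includes Ets1 and Fli1, were in 660 valley peaks (65.6%, 62.6 to 68.5, background 58.8%). The share was 58.2% in peaks centred inside H3K4me1, lower by 7.38 points (95% interval of the difference 3.85 to 10.8, adjusted exact p = 1.25e-04). It was 52.1% in peaks without H3K4me1, where the difference was 13.5 points (9.84 to 17.0, adjusted exact p = 7.13e-12). Over the whole Runx3 peak the comparison with peaks centred inside H3K4me1 no longer passed (odds ratio 1.10, adjusted exact p = 0.638).

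STAT motifs (TTCNNNGAA), the palindrome bound by the STAT factors that act downstream of cytokine receptors such as that for IL-2, were in 110 valley peaks (10.9%, 9.15 to 13.0, background 6.69%). The share was 6.39% in peaks centred inside H3K4me1 (odds ratio 1.80, difference 4.55 points, 2.51 to 6.80, adjusted exact p = 3.68e-05) and 6.79% in peaks without H3K4me1 (odds ratio 1.69, difference 4.15 points, 2.04 to 6.44, adjusted exact p = 1.80e-04). The STAT and ETS words can share bases. Leaving out STAT matches that overlap an ETS match, a comparison chosen after the data were seen, gave 9.44% of valley peaks against 4.94% (odds ratio 2.01, adjusted exact p = 2.94e-06) and 5.57% (odds ratio 1.77, adjusted exact p = 7.93e-05). Against peaks without H3K4me1 the difference did not pass when read in 100 bp (odds ratio 1.50, adjusted exact p = 0.0634).

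AP-1 motifs (TGACTCA or TGAGTCA), the site of Jun and Fos dimers, were in 169 valley peaks (16.8%, 14.6 to 19.2, background 12.6%). The share in peaks centred inside H3K4me1 was 13.3%, lower by 3.53 points (0.968 to 6.27, adjusted exact p = 0.0132). That difference passed neither in 100 bp (odds ratio 1.35, adjusted exact p = 0.0634) nor among valley peaks whose gap had at least 95% unique 40-mers (odds ratio 1.26, adjusted exact p = 0.0562). Peaks without H3K4me1 had 15.6%, with a difference of 1.25 points (-1.44 to 4.08, adjusted exact p = 0.472). T-box motifs (GGTGTGA), the core recognised by Eomes and T-bet, were in 71 valley peaks (7.06%, background 6.38%), 7.79% of peaks centred inside H3K4me1 and 6.65% of those without, and the differences of -0.734 points (-2.53 to 1.27, adjusted exact p = 0.538) and 0.406 points (-1.40 to 2.40, adjusted exact p = 0.706) did not pass.

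**Figure D3:**
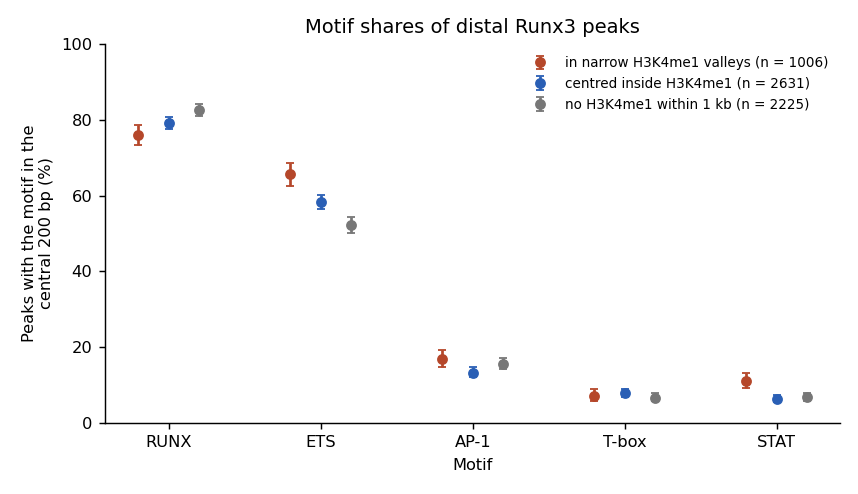
Share of distal Runx3 peaks with each motif in the central 200 bp (y axis, percent) for 5 motifs (x axis) in the 3 classes, with 95% Wilson intervals as bars. Valley peaks were at 65.6% for ETS and 10.9% for STAT, above both other classes, and at 76.0% for RUNX, below both, of which the comparison with peaks centred inside H3K4me1 did not pass adjustment.

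Among the RUNX words, the difference from peaks without H3K4me1 was found for TGTGGT, present in 56.5% of valley peaks and 65.7% of the others (adjusted exact p = 5.70e-06, background 53.0%). Over the whole Runx3 peak the shares were 82.1% and 83.3% and did not differ past the threshold (odds ratio 0.918, adjusted exact p = 0.626), whereas TGTGGC was then in more valley peaks, 62.8% against 53.6% (odds ratio 1.46, adjusted exact p = 7.35e-06). The searched length was unequal there, with a median peak width of 739 bp in valley peaks and 633 bp in the others. What that length contributed was not tested. In the central 200 bp the remaining variants passed in neither comparison, with shares in valley peaks of 32.4% for TGTGGC (background 29.9%), 7.16% for TGCGGT (background 11.2%) and 4.08% for TGCGGC (background 8.24%). The background includes peaks within 1 kb of a TSS. Peaks centred inside H3K4me1 and peaks without it had 7.79% and 9.12% for TGCGGT, and 3.84% and 4.58% for TGCGGC.

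Pairs of motifs, taken as 2 motifs that did not overlap and lay at most 50 bp apart, were compared in the same way over 6 tests. Paired RUNX motifs were in 245 valley peaks (24.4%, background 27.7%), against 30.6% of peaks centred inside H3K4me1 (adjusted exact p = 5.87e-04) and 35.6% of those without (adjusted exact p = 9.16e-10). With H3K4me1 within 500 bp on both sides the share was 28.5%, and the comparison with peaks centred inside H3K4me1 no longer passed (odds ratio 0.903, adjusted exact p = 0.315). An ETS motif beside a RUNX motif was in 373 (37.1%, background 33.0%), above the 30.7% of peaks without H3K4me1 (adjusted exact p = 8.44e-04) while the difference from the 34.2% of peaks centred inside it did not pass (2.91 points, -0.549 to 6.43, adjusted exact p = 0.123). That difference passed within 5 strata of GC content (odds ratio 1.21, Cochran-Mantel-Haenszel test, adjusted p 0.0242), a property in which the classes differed. AP-1 beside RUNX was in 100 (9.94%, background 7.09%), against 7.60% (adjusted exact p = 0.0390) and 9.48% (adjusted exact p = 0.699). The first of these calls was lost in the central 100 bp (odds ratio 1.05, adjusted exact p = 0.847), with at least 95% unique 40-mers in the gap (1.27, adjusted exact p = 0.125) and with 1 Runx3 peak per 5 kb (1.32, adjusted exact p = 0.0666). By combination, 425 valley peaks held RUNX and ETS without AP-1, 204 RUNX alone, 143 ETS alone, 76 all 3 and 65 none of them.

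**Figure D4:**
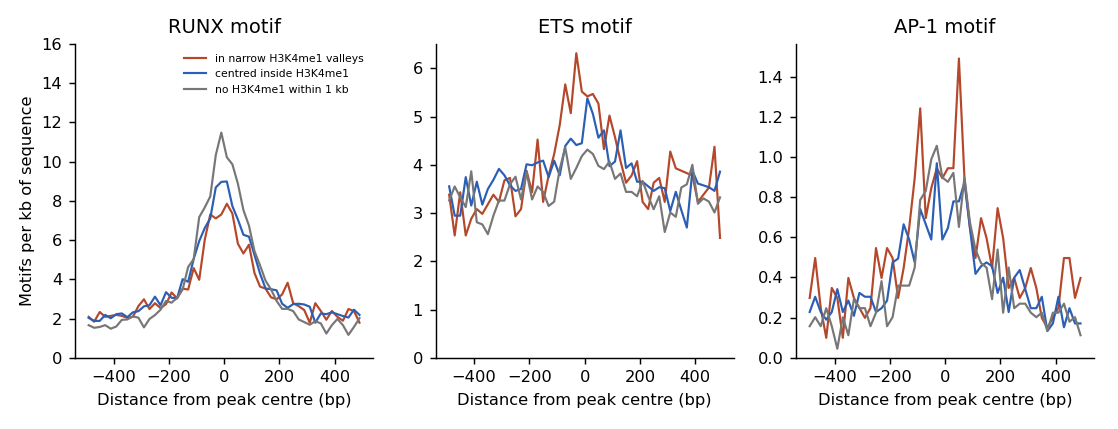
RUNX, ETS and AP-1 motifs per kb of sequence (y axes, different scales) by distance from the Runx3 peak centre (x axes, bins of 20 bp), for valley peaks, peaks centred inside H3K4me1 and peaks with none within 1 kb. RUNX density in the valley peaks reached 7.85 per kb near the centre, against 8.99 and 11.5 in the other classes, while ETS density reached 6.31 per kb, against 5.38 and 4.36.

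Motifs were concentrated at the centre of the valley peaks, as the plot of motif positions shows. The RUNX motif nearest to the peak centre lay a median of 42 bp away in the 963 valley peaks that held one, and within 100 bp in 80.5%. Measured from the midpoint of the gap, the median was 62.5 bp. Both distances were read on motifs inside the Runx3 peak, so neither is independent of where that peak lies. Inside the gaps the density of RUNX motifs was 3.83 per kb, against 2.30 per kb in the adjoining H3K4me1 intervals up to 500 bp from the edge, a ratio of 1.67. The ratio was 2.23 for AP-1 (0.620 and 0.278 per kb), 1.52 for STAT (0.465 and 0.307), 1.39 for T-box (0.246 and 0.177) and 1.26 for ETS (4.21 and 3.34). These densities are descriptions, since gaps and flanks lie at different distances from the Runx3 peak. The share of valley peaks with a central RUNX motif was 84.7% (78.3 to 89.4) in gaps of up to 200 bp, 76.6% from there to 500 bp, 74.2% from 500 to 1000 bp and 70.3% (62.5 to 77.0) over 1000 bp.

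The gaps with a valley peak were then compared with the 8830 gaps without Runx3, using the 200 bp around each gap midpoint. In gaps narrower than this window, part of the flanking H3K4me1 intervals was read too. Gaps of up to 200 bp numbered 163 of the 1005 with a valley peak and 3697 of the 8830 without Runx3. RUNX motifs were in 637 of 1005 gaps with a valley peak (63.4%) and 32.4% of gaps without Runx3 (odds ratio 3.61, two-sided Fisher's test adjusted over the 5 motifs, adjusted exact p = 4.14e-79). AP-1 motifs were in 13.7% and 6.82% (odds ratio 2.18, adjusted exact p = 1.20e-12), T-box motifs in 6.57% and 3.35% (2.03, adjusted exact p = 2.21e-06), STAT motifs in 9.75% and 5.67% (1.80, adjusted exact p = 2.21e-06) and ETS motifs in 58.5% and 47.0% (1.59, adjusted exact p = 7.71e-12). These gaps were split by whether they held a Runx3 peak, and RUNX is the motif that Runx3 binds. The RUNX difference therefore describes that split and is no independent result. Gaps with a valley peak were wider, with a median of 543 bp against 285 bp, and within 5 strata of gap width the odds ratios were 3.61 for RUNX, 2.43 for AP-1, 2.09 for T-box, 1.83 for STAT and 1.65 for ETS.

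The base composition of the classes differed too. The central 200 bp had a mean GC content of 49.4% ± 5.58 (SD over 1006 valley peaks), against 52.1% ± 4.96 in peaks centred inside H3K4me1 and 49.1% ± 6.32 in those without. Of 2080 6-mers, each counted with its reverse complement, 120 (5.77%) were in more valley peaks than peaks centred inside H3K4me1 and 60 (2.88%) in fewer, at an adjusted p under 0.05 (Fisher's exact test, two-sided). Those with the smallest p were AAAAAA (14.2% of valley peaks and 6.50% of the others), TTAAAA (14.4% and 6.65%), TAAAAA (13.6% and 6.92%), AAGAAA (23.3% and 14.8%) and AAATAA (12.2% and 6.23%) among the higher. Among the lower they were GCTCCC (8.65% and 14.6%), CCCAGG (19.1% and 26.5%), CTGGCA (12.3% and 18.6%), GGGCCA (101 valley peaks, against 15.8% of the others) and CTGTGC (15.3% and 21.9%). Of the 120 higher 6-mers 114 held at most 2 G or C, and of the 60 lower ones 53 held at least 4. Within 5 strata of GC content, an alternative chosen after the data were seen, 0 6-mers passed by the stratified Cochran-Mantel-Haenszel test, with 121 higher and 85 lower at an unadjusted p under 0.05. The ETS, STAT and AP-1 differences from peaks centred inside H3K4me1 passed within these strata. Their odds ratios were 1.48, 1.54 and 1.37, against 1.37, 1.80 and 1.32 without strata, so that the STAT difference was smaller there.

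The nearest protein-coding gene was taken as the gene of each valley peak, which does not show that the peak acts on it. Valley peaks were nearest to 840 of 22208 protein-coding genes (3.78%), and to 18.9% of the 4444 genes nearest to any Runx3 peak 1 to 50 kb from a TSS. A single valley peak was found at 702 of these genes and 2 or more at 138. Gene lists were described by counts of genes beside these shares, and by counts of peaks, since genes with many distal Runx3 peaks are more often nearest to a valley peak. Over all genes 1006 of 7321 distal Runx3 peaks (13.7%) were valley peaks. Cytokine receptors and JAK-STAT components had a valley peak at 9 of 27 genes, and 11 of their 37 distal peaks (29.7%) were valley peaks. Lymphocyte transcription factors had one at 17 of 47 genes, or 44.7% of the 38 with a distal peak, but with 25 of 134 distal peaks (18.7%) their share by peaks was closer to that over all genes. Trafficking and adhesion genes had one at 7 of 22 genes (8 of 36 peaks, 22.2%), TNF receptors and survival genes at 4 of 18 (5 of 25 peaks), and cytokines and chemokines at 3 of 11 (4 of 29 peaks, 13.8%). Cytotoxic granule and death ligand genes had one at 3 of 22 genes, 23.1% of those with a distal peak, and 5 of their 30 distal peaks (16.7%) were valley peaks. For NK receptors and proximal signalling the direction turned with the measure, with 5 of the 21 genes with a distal peak (23.8%) above the share over all genes and 5 of 43 peaks (11.6%) below it. Of 22 genes characteristic of T cells, B cells or myeloid cells 0 had a valley peak, and 7 had a distal Runx3 peak of any class. These genes had only 8 distal peaks, too few to tell 0 from the share of 13.7% over all genes.

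Transcription factor genes held 25 of the 63 listed valley peaks. These were 18.7% of their 134 distal Runx3 peaks, against 13.7% over all genes. Runx1, a paralogue of Runx3, had 4, of which 3 were intronic, at 4005, 7299 and 74504 bp downstream of the nearest TSS of the gene, and 1 lay 41425 bp upstream. Their gaps were 399 to 584 bp wide and all 4 held a central RUNX motif. Runx3 itself had 2. One in its intron, 5646 bp downstream of a TSS, lay in a gap of 542 bp, and one 40180 bp upstream lay in a gap of 1327 bp beside an H3K4me1 interval of 6192 bp, the widest flank of all valley peaks. Prdm1, which encodes the terminal differentiation factor Blimp-1, had 2 valley peaks at 29051 and 55180 bp downstream of its TSS, and Bach2, a repressor that competes with AP-1 factors, had 2. Nfkb1, the p105/p50 subunit of NF-kappaB, had 2, of which the one 14918 bp downstream held 2 AP-1 motifs and no RUNX motif in the entire peak. Nfil3, a factor required for NKC development, had 1 valley peak 5402 bp upstream, in a gap of 325 bp, with RUNX, ETS and STAT motifs. The 2 valley peaks nearest to Myc, the growth regulator, lay 190569 and 202567 bp downstream of it in introns of the non-coding gene Pvt1, each spanning its gap and holding 2 central RUNX motifs and 1 ETS motif.

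Cytokine signalling genes included feedback inhibitors and receptors. Socs1 and Cish, which encode inhibitors of JAK-STAT signalling induced by cytokines, had 2 and 1 valley peaks. The Socs1 peaks lay 13177 and 16641 bp downstream of the TSS in gaps of 180 and 875 bp, and the Cish peak 13914 bp downstream in a gap of 85 bp. All 3 held a STAT motif in the central 200 bp, and the Socs1 peak at 13177 bp held 2. Of these 2, 1 shared bases with an ETS motif. Il2ra, the alpha chain of the IL-2 receptor, had an intronic valley peak 10777 bp downstream of its TSS with 1 RUNX and 2 ETS motifs and no STAT motif in the central 200 bp. Tgfbr2, the type II receptor for TGF-beta, had 1 intronic valley peak at 14282 bp and 1 at 6548 bp upstream. Il12rb1, a subunit of the IL-12 receptor, and Stat3 each had 1 in an intron, 3109 and 5053 bp downstream of a TSS.

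The central sequences of valley peaks at Socs1, Cish and Runx1 are shown for their STAT motifs, which are in capitals. They were chosen after their values were seen and stand as examples of the STAT matches counted above. They are on the plus strand of mm9, 5′ to 3′.
Socs1, chr16:10772352-10772551: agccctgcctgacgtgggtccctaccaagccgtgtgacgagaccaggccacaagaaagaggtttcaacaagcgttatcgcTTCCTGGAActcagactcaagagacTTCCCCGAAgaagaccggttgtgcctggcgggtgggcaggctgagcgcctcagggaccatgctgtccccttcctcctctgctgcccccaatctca
Cish, chr9:107215300-107215499: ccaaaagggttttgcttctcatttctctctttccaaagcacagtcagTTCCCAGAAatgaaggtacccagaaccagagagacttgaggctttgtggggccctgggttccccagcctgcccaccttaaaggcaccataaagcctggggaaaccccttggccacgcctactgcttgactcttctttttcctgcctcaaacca
Runx1, chr16:92822151-92822350: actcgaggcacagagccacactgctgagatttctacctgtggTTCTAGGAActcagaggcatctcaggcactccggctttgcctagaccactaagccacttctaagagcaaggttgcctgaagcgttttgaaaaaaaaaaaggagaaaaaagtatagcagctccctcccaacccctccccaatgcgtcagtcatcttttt
Among the 63 valley peaks nearest to listed genes, 14 (22.2%) held a STAT motif in the central 200 bp, against 10.9% of all valley peaks. They were nearest to Socs1 (2), Bcl2, Ccl5, Cish, Csf2, Cxcr4, Eomes, Ets1, Fasl, Klrb1b, Nfil3, Runx1 and Selplg. The share was noticed in these data and was not tested.

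Cytotoxic genes held 5 and cytokine genes 4 of the 63 listed valley peaks. These were 16.7% and 13.8% of their distal Runx3 peaks, against 13.7% over all genes. Gzmb, the cytotoxic protease granzyme B, had 2 at 22294 and 25799 bp upstream of its TSS, in gaps of 1105 and 634 bp, with 1 and 2 central RUNX motifs. Fasl, the death ligand, had 1 upstream at 6429 bp and 1 downstream at 8973 bp, and neither Runx3 peak spanned its gap. Ccl5, a chemokine secreted by activated NKC, had 2 upstream, at 6594 and 19870 bp, each with 2 central RUNX motifs. Ifng, Csf2 and Rab27a had 1 each.

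Receptor and adhesion genes included several with intronic valley peaks. Cd244, a SLAM family receptor, had the widest Runx3 peak among the named genes, 1948 bp, in an intronic gap of 1394 bp flanked by H3K4me1 intervals of 2582 and 2771 bp. Zap70 and Vav1, which act in signalling from activating receptors, had intronic valley peaks 5286 and 11611 bp downstream of a TSS. The intronic peak at Tigit, an inhibitory receptor, held no RUNX motif in its 506 bp. Klrb1b, a lectin-like receptor of the NKR-P1 family, had 1 at 10203 bp upstream. Itgb2, the beta chain of LFA-1, had an intronic valley peak in a gap of 33 bp, Itgb1 had 2 upstream at 38958 and 42477 bp, and Ccr2, Cxcr6 and Selplg had 1 each. Tnfrsf9, the costimulatory receptor 4-1BB, had an intronic valley peak in a gap of 228 bp. The gap at Traf2, a signalling adaptor of TNF receptors, was 137 bp wide, and Bcl2l11, which encodes the pro-apoptotic protein Bim, had 2 valley peaks, 1 of them without a RUNX motif in the entire peak.

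**Figure D5:**
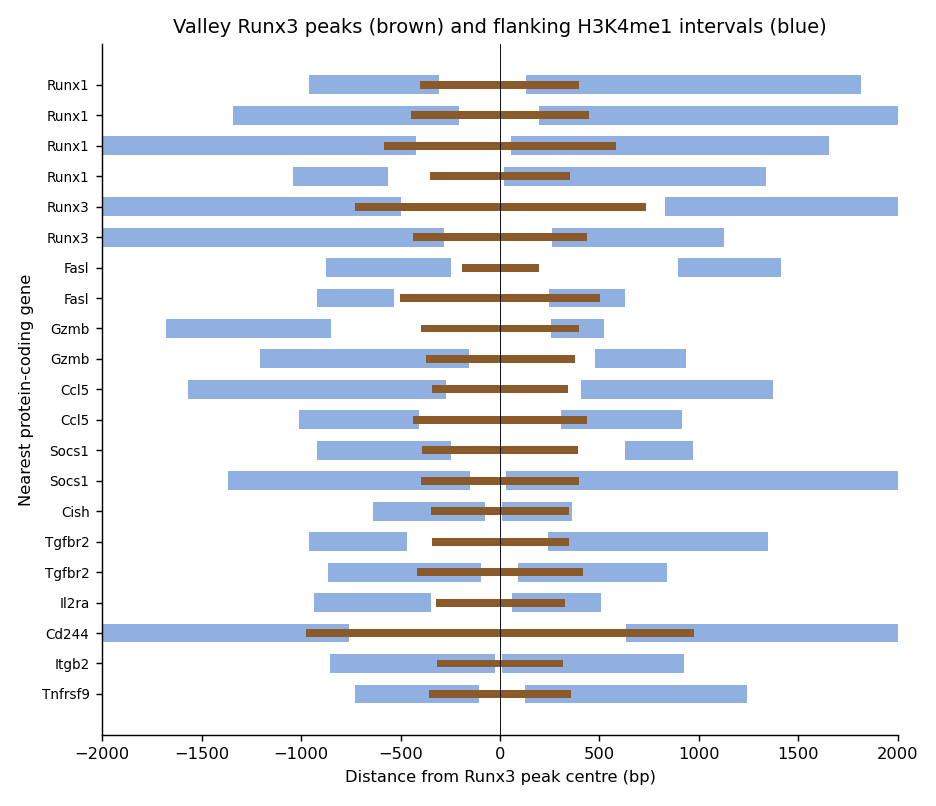
Valley Runx3 peaks nearest to 12 genes (rows), drawn to scale by distance from the Runx3 peak centre (x axis, bp), with the Runx3 peak in brown and the flanking H3K4me1 intervals in blue, cut at 2000 bp. The brown peak overlaps both blue intervals where it spans the gap, as at Itgb2 (gap of 33 bp) and Cd244 (1394 bp), and falls short of both at 1 of the Fasl peaks (1141 bp).

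The map of these loci shows gaps between called intervals that ranged from far narrower than the Runx3 peak to wider than it. Over all genes, most valley peaks were found at Mgat5, a Golgi glycosyltransferase that branches N-glycans, and Gadd45g, a stress-inducible growth arrest gene, with 5 each, and at Runx1, Snx29, a sorting nexin, and Vgll4, a cofactor of TEAD factors, with 4 each. The Mgat5 peaks were intronic and 2 of the 5 held no RUNX motif in the entire peak. The Gadd45g peaks were intergenic and ran from 10922 to 157261 bp downstream of its TSS. Each of the 5 held a RUNX motif in the central 200 bp, in gaps of 78 to 728 bp. At Snx29, the valley peak 1487 bp downstream of a TSS held 7 RUNX motifs in its central 200 bp and 11 in the entire peak, in a gap where 91.4% of 40-mers were unique. The 4 Vgll4 peaks were intronic and held 2 to 4 central RUNX motifs each.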

How the data were processed

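ELAND was the aligner and mm9 the build. The authors used only reads with a unique alignment, joined those of replicates and ran MACS with NIS as the control. The deposited values, of unit other, are peak starts and ends in bp, without scores, coverage or values per library. Replicates therefore could not be compared.

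Starts were counted from 1. GENCODE M1 gave TSSs and genes, on the sequence of the same build. A peak's location was read at its centre, with UTR ahead of exon and exon ahead of intron. Motifs were searched on both strands. Shares were compared by two-sided Fisher's exact tests, adjusted by the Benjamini-Hochberg method within motifs, RUNX variants, pairs and 6-mers, and differences have 95% Newcombe intervals. Stratified tests were Cochran-Mantel-Haenszel tests. The motif search and 6-mer scan were tested on simulated sequences, and the rule against a slower check on the real peak lists.

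The valley peaks, gene lists and tests were chosen with earlier results of these data known. Named genes were the listed genes nearest to a valley peak, up to 30, by number of valley peaks and then by TSS distance, and the 5 genes with most valley peaks. Ifng, Csf2, Rab27a and the genes named only for STAT motifs fall outside this rule and were named after their values were seen. Of 204 listed genes, 202 matched the annotation by symbol (not Syk and Spi1). The software was python 3.11.15, numpy 2.4.6, scipy 1.17.1, numba 0.67.0 and matplotlib 3.10.9.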

Additional observations from a re-analysis of the deposited data

How the results depend on the processing

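The number of valley peaks followed the distance allowed to H3K4me1, with 646 at 500 bp and 1219 at 2 kb. It was 130 when the entire Runx3 peak had to lie outside H3K4me1 and 944 with TSSs of protein-coding genes alone. Values below are odds ratios. Whole Runx3 peaks differ in searched length. Their median widths were 739 bp in valley peaks, 717 bp in peaks centred inside H3K4me1 and 633 bp in peaks without it. With motifs searched in the whole Runx3 peak, ETS against peaks centred inside H3K4me1 (1.10) and RUNX against peaks without H3K4me1 (0.900) no longer passed, AP-1 (1.55) and T-box (1.43) against peaks without H3K4me1 now passed, and the direction turned, without a call, for TGCGGC against inside (0.933) and for TGCGGT (1.02) and TGCGGC (1.25) against none. In the central 100 bp, AP-1 against inside (1.35) and STAT against none (1.50) no longer passed, and T-box (1.04) and TGCGGC (0.975) against inside and TGTGGC (0.872) and AP-1 beside RUNX (0.908) against none turned without a call. Among valley peaks with at least 95% unique 40-mers in the gap, AP-1 against inside (1.26) no longer passed, and T-box (0.968) and AP-1 beside RUNX (0.995) against none turned without a call. Within 5 strata of GC content, TGTGGC (1.02) and TGCGGT (1.06) against inside turned without a call, and with H3K4me1 within 500 bp on both sides RUNX against none (0.792) no longer passed while TGTGGC (1.02) and TGCGGT (1.01) against inside turned without a call. For each of these the cause was not tested. Among variants and pairs, calls were lost for TGTGGT against none over the whole peak (0.918), for paired RUNX motifs against inside with H3K4me1 within 500 bp (0.903) and for AP-1 beside RUNX against inside in 3 settings (1.05 to 1.32). Calls were gained for TGTGGC (1.46) and AP-1 beside RUNX (1.23) against none over the whole peak, and for TGTGGT (0.803) and ETS beside RUNX (1.21) against inside within 5 strata of GC content. The called 6-mers numbered 30 higher and 6 lower in the central 100 bp and 0 of either kind within 5 strata of GC content. ETS against peaks without H3K4me1, STAT against inside and the 5 motifs in gaps with and without Runx3 kept their direction and call under each alternative run. For RUNX in the gaps this follows from their split by Runx3 binding. No paired analysis was possible because peaks were called on joined reads and the lists carry no values per library. For the same reason no library could be left out, and without scores no stricter peak threshold could be applied.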
